A study of Mus musculus with 16 samples.

Results

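Interferon-stimulated genes, the genes that cells switch on when interferon reaches them, were followed by name in iWAT, the inguinal white adipose tissue that forms the subcutaneous fat pad of the groin, by sequencing of poly-A RNA. A list of 41 such genes was looked up by symbol in a table of 16091 genes, and 41 of 41 were found there and passed the filter on low values, which left 14189 genes to test. The 16 libraries came from C57BL6/J mice, a wild-type inbred strain, and fall into 4 groups of 4. The high-fat antibody group was fed a high-fat diet and given an antibody against PDGFcc (AF1447), the high-fat untreated group had the high-fat diet and no antibody, the control antibody group had the control diet and the antibody, and the control untreated group had the control diet alone. The antibody, directed against a platelet-derived growth factor ligand, was injected into the peritoneum, a systemic route, at 50 mg/kg in 100 µl. Dosing began at 6 weeks of age and ran for 2 weeks at intervals of 2 days. The sources used here do not say whether untreated mice had a control injection or how long the diets lasted. The labels do not say that the 4 libraries of a group are 4 separate mice, and p-values measure only the spread between these libraries.

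Type I interferons bind the receptor pair Ifnar1 and Ifnar2 and act through Janus kinases on Stat2, which joins Irf9 in a complex that binds the interferon-stimulated response element (ISRE). Type II interferon acts through Ifngr1 and Ifngr2 on factors that bind the gamma-activated site (GAS), and is a strong inducer of the guanylate-binding and immunity-related GTPases and of the antigen-processing genes. In adipose tissue these genes are expressed by adipocytes, their progenitors and endothelial cells as well as by macrophages and other leukocytes. In bulk tissue, fewer cells of a type and less RNA per cell cannot be told apart.

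Values are the deposited normalized counts per gene and library, a linear scale. The smallest library summed to 24.02 and the largest to 28.15, each times 1e6 normalized counts. Adipocyte markers, among them Adipoq and Plin1, were present throughout, with sums over 8 genes of 717600 to 958300. Mammary epithelial genes such as Krt8 and Krt14 were not among the genes of the table (0 of 7), and B cell markers were low, with sums over 6 genes of 169.7 to 321. Skeletal muscle markers stood out in 4 libraries, with sums over 10 genes of 593300 in high-fat untreated 2 and 199400, 170300 and 155800 in control antibody 1, 2 and 4, against 1177 to 37870 in the other 12. High-fat untreated 2 was the lowest of its group for 33 of the 41 interferon-stimulated genes.

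Other libraries also stood apart within their groups. Control untreated 1 was the highest of its group for 31 of 41 members, and control untreated 3 the lowest for 30 of 41. High-fat untreated 4 and 3 were among the 4 highest of all 16 libraries for 31 and 28 members, and control untreated 1 for 26. All 5 members of the oligoadenylate synthetase family were in those top places in each of these 3 libraries. The same 3 libraries had the largest sums over 12 macrophage markers, 77790 in high-fat untreated 3, 65500 in high-fat untreated 4 and 65710 in control untreated 1, whereas the other 13 libraries held 32220 to 59000. The highest of those 13, 59000, was that of high-fat untreated 2, and the lowest, 32220, that of control untreated 3. The match was not particular to macrophages. High-fat untreated 3 and 4, control untreated 1 and high-fat antibody 1 had the 4 highest sums of progenitor and of neutrophil markers. In that order the sums were 211000, 178900, 193700 and 188200 over 7 progenitor markers. Over 5 neutrophil markers they were 309.5, 522.4, 317.2 and 332.4. None of the 12 macrophage markers was at 0 in any library. The part of macrophage, progenitor or neutrophil number in the levels of the interferon-stimulated genes was not tested.

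**Figure D1:**
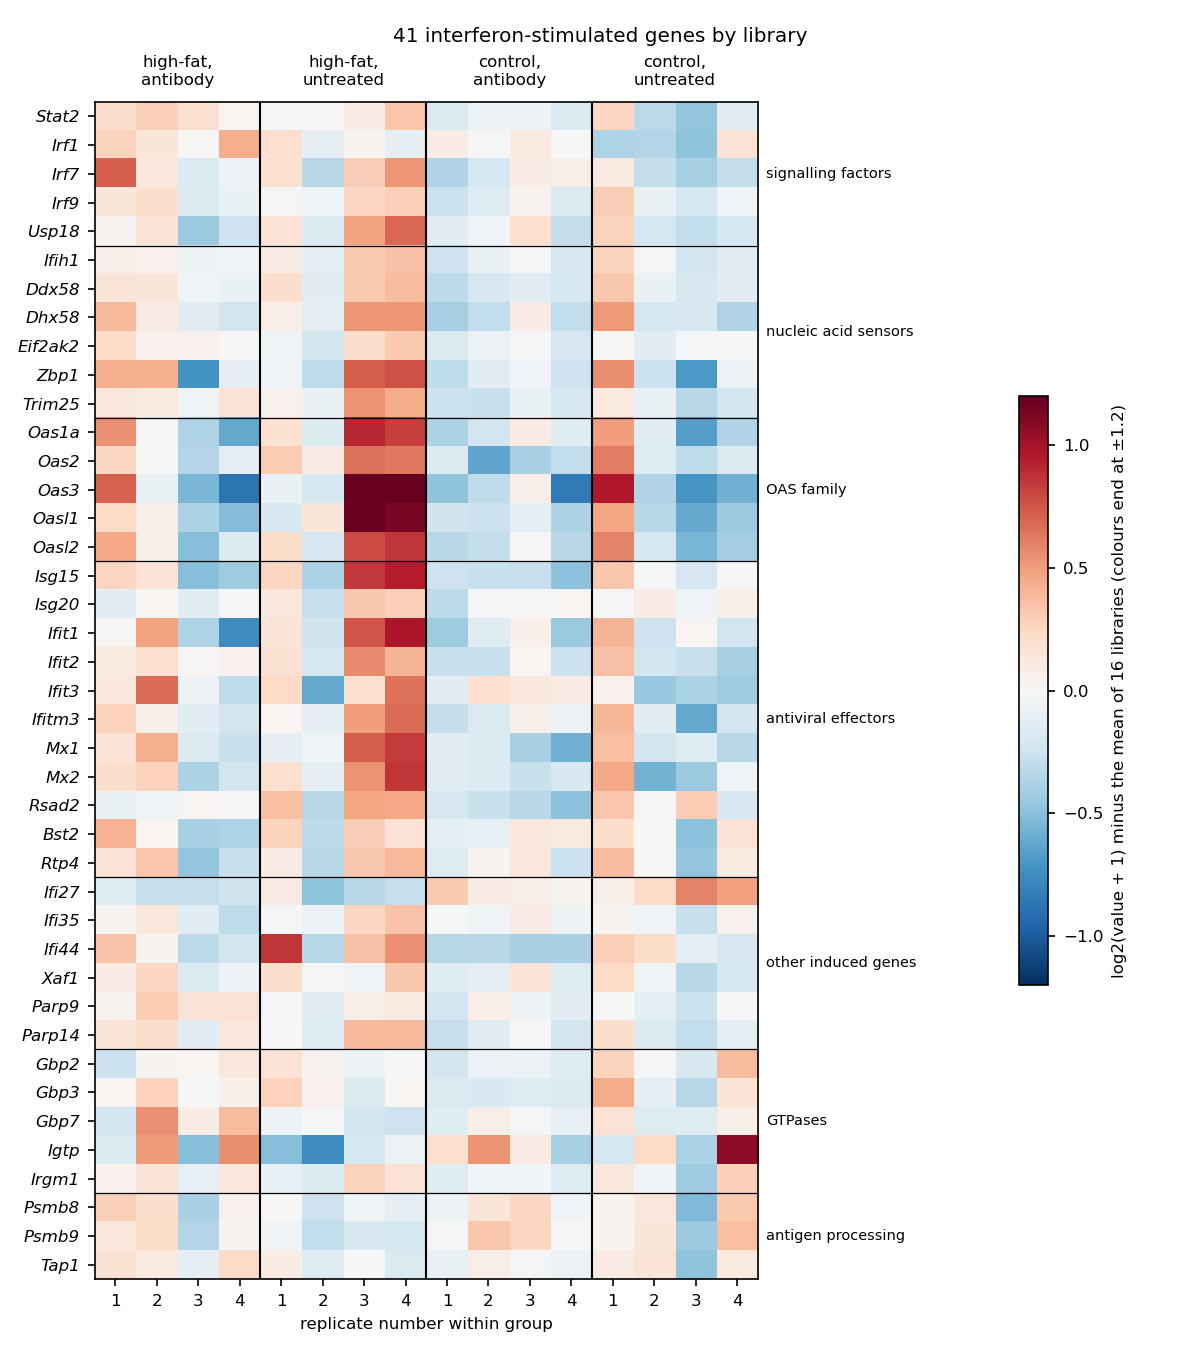
Heat map of the 41 genes (rows, grouped by role) in the 16 libraries (columns, replicate number within each group), coloured by log2(value + 1) minus the gene's mean over the 16 libraries, with colours ending at ±1.2. High-fat untreated 3 and 4 and control untreated 1 are red over most rows above the GTPases, and control untreated 4 is red for Igtp.

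Levels per kilobase of exon, in normalized counts averaged over the 16 libraries, spanned a wide range among the 41 genes. Ifi27, a small membrane protein, was the highest at 8574 per kilobase. Ifitm3, which blocks fusion of viruses with cell membranes, followed at 6321 and Bst2, the tetherin that holds budding virus at the cell surface, at 1828. At the other end stood Oas3 at 26.29, Mx2 at 30.34, Ifi44 at 32.47 and Mx1 at 44.96 per kilobase. The Mx genes encode antiviral GTPases, and C57BL/6 mice carry a defective Mx1 allele.

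The promoters of the members were read for the motifs that the interferon-activated factors bind. RefSeq (GRCm38.p6) gave windows, 250 bases before to 50 after the start, for 31 of 41 members. The ISRE core was searched as TTTCNNTTTC on both strands (GAAANNGAAA on the other), and the GAS as TTCNNNGAA, which reads the same on both strands. Some members have several windows, and the 31 have 37 in all. An ISRE core was found in 17 of 37 member windows (45.9%), against 3.44% of 32851 windows of the same length, and those 17 belong to 17 of the 31 members. A GAS was found in 11 of 37 (29.7%), against 8.3% of all windows, and in Ifitm3 and Bst2 it overlapped an ISRE core. All 5 GTPases with a window held an ISRE core, whereas 0 of 3 antigen-processing genes did. A match is a description of letters and not a measured binding site.

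The stretch of 250 bases upstream of the start is printed for 6 members whose values are described below, Oas3 and Isg15 as members with wide library differences, Oasl1 as an OAS-like gene with no match, Stat2 and Trim25 as genes that differed by diet, and Igtp as a GTPase with another order of libraries. Capitals mark the ISRE core in Oas3, Isg15 and Stat2. In Isg15 they cover 3 overlapping cores, the nearest ending 57 bases before the start. In Igtp the first capitals are the GAS and the second the ISRE core, which ends 25 bases before the start. The windows of Oasl1 and Trim25 held neither motif.
Oas3 chr5:120777660-120777909 (minus strand): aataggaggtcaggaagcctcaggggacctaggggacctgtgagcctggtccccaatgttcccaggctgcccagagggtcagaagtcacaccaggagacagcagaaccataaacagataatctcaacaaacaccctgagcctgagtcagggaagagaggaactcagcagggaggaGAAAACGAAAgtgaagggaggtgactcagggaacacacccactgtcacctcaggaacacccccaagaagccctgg
Oasl1 chr5:114922990-114923239 (plus strand): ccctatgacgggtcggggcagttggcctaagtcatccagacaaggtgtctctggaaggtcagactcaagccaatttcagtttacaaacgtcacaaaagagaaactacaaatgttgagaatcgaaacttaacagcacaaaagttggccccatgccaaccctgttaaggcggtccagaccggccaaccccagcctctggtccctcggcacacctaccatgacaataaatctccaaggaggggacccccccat
Isg15 chr4:156200819-156201068 (minus strand): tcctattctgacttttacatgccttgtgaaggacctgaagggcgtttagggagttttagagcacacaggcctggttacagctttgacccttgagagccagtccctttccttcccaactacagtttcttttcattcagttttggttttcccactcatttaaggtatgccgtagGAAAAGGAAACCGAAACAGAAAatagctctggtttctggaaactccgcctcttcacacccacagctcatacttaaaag
Stat2 chr10:128270248-128270497 (plus strand): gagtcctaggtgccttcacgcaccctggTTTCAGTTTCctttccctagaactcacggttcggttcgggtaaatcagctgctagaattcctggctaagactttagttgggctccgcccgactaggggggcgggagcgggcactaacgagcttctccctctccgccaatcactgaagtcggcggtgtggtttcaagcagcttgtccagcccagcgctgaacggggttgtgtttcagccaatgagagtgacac
Trim25 chr11:88999153-88999402 (plus strand): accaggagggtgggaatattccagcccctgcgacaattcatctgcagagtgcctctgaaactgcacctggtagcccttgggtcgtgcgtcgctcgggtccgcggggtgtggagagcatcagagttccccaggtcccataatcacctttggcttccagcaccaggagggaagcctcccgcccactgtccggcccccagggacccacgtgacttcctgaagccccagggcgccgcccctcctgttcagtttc
Igtp chr11:58199306-58199555 (plus strand): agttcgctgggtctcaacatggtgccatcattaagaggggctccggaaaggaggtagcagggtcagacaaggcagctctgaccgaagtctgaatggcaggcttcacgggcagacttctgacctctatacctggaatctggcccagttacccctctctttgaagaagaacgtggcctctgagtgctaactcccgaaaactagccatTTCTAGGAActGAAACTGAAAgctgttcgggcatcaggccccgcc

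The comparison of high-fat with control diet in mice without antibody asks how the genes stand on the diet alone. Of the 41 members, 1 passed an adjusted p of 0.05, Ifi27, which fell, a share of 2.44%. Of all genes tested, 8.15% passed, 5.17% being lower. The differences of the other 40 members did not pass, and their signs were mostly positive: 34 of 41 members lay higher on the high-fat diet, with a median log2 difference of 0.25. Of all genes tested 53.1% lay higher, with a median of 0.02. The mean deviation over all 41 members was 0.36 and 0.41 in high-fat untreated 3 and 4, against 0.10 and -0.19 in high-fat untreated 1 and 2. Members thus varied together by library, and counts of signs here and below are not independent results. At an unadjusted p under 0.05 there were 7 members higher and 1 lower, 19.51% of members, against 30.3% of all genes (14.2% higher and 16.1% lower).

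Markers of some other cell types lay higher in the same comparison. Macrophage markers were higher for 12 of 12, with a median log2 difference of 0.53, 1 passing (Cd68), and sums of 42550 to 77790 in high-fat untreated and 32220 to 65710 in control untreated libraries. Progenitor markers were higher for 7 of 7, with a median of 0.42, 0 passing, and sums of 139500 to 211000 in high-fat untreated and 80380 to 193700 in control untreated libraries. Skeletal muscle markers were higher for 9 of 10, 0 passing, with sums of 7689 to 593300 in high-fat untreated and 1351 to 37870 in control untreated libraries. Neutrophil markers were higher for 3 of 4 tested and dendritic cell markers for 5 of 7, with medians of 0.76 and 0.11. Endothelial markers were higher for 4 of 7 and T and NK cell markers for 6 of 11, with medians of 0.02 and 0.03. Adipocyte markers were higher for 3 of 8 and blood markers for 1 of 5, with medians of -0.07 and -0.06. In these 6 lists 0 passed. The part of these cells in the members' values was not tested.

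Ifi27 (ENSMUSG00000064215, chr12:103434211-103440239, GRCm38) had 13180, 8818, 9769 and 10130 normalized counts in the 4 high-fat untreated libraries, against 13000, 14530, 18560 and 17330 in the control untreated libraries. The groups overlap only because high-fat untreated 1 lies just above control untreated 1. The log2 difference was -0.60 ± 0.13 (SE), a fold of 0.66 (adjusted p = 0.0242, limma). The call was lost, with adjusted p between 0.0654 and 0.0972, without high-fat untreated 2, 3 or 4 or control untreated 3 or 4, taken out singly. With only these 8 libraries in the fit the adjusted p was 0.162, and with a score of the muscle markers as covariate it was 0.0709. With the replicate number as a block it was 0.06955 (limma).

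**Figure D2:**
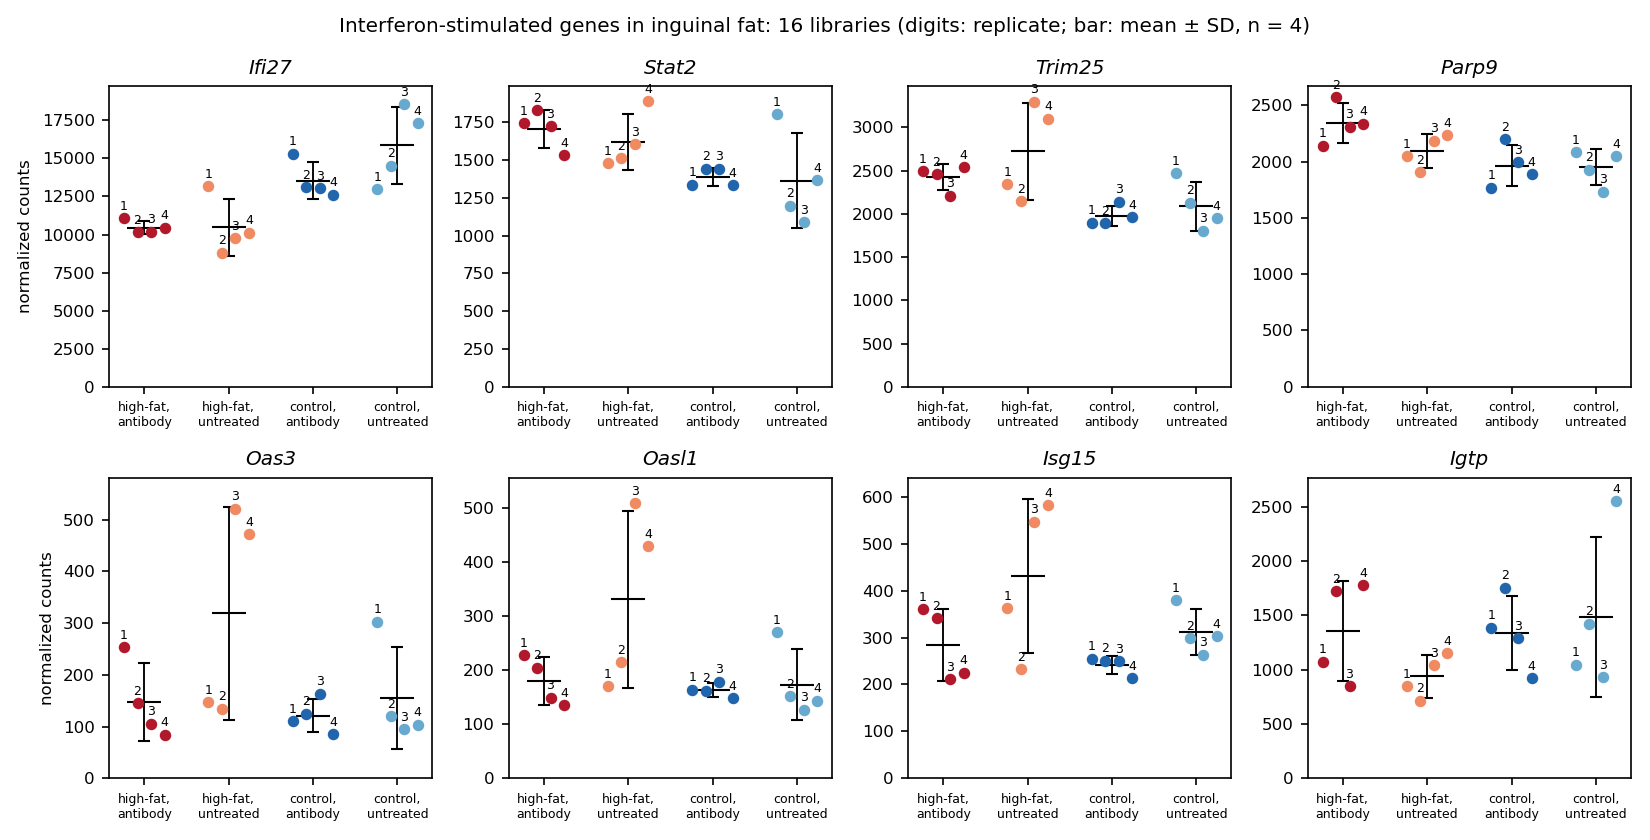
Normalized counts (linear axis from 0) of 8 of the genes in each library, as points numbered by replicate, with the mean and SD of each group of 4 as bars. Ifi27 lies lower in 7 of 8 high-fat libraries than in any control-diet library, whereas Oas3, Oasl1 and Isg15 have 2 high libraries, 3 and 4, in the high-fat untreated group.

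Among the signalling factors, which carry or restrain the response, 5 of 5 lay higher on the high-fat diet and 0 passed. Stat2 averaged 1621 ± 186 normalized counts in the high-fat untreated group and 1363 ± 313 in the control untreated group (SD, n = 4 each). Its log2 difference was 0.27 ± 0.12. Irf7, the factor that amplifies type I interferon production, averaged 1903 ± 446 in high-fat untreated and 1437 ± 236 in control untreated libraries. Usp18, which strips Isg15 from proteins and dampens receptor signalling, averaged 474 ± 118 in high-fat untreated and 352 ± 68.5 in control untreated libraries. In all 3 genes the groups overlapped, and control untreated 1 lay within the range of the high-fat untreated libraries. Irf1 and Irf9 had log2 differences of 0.26 and 0.13.

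The nucleic acid sensors comprise the RNA helicases Ifih1 (MDA5), Ddx58 (RIG-I) and Dhx58 (LGP2), the kinase Eif2ak2 (PKR), the Z-form nucleic acid sensor Zbp1, and Trim25, the ubiquitin ligase that activates RIG-I. All 6 lay higher in high-fat untreated libraries and 0 passed, with a median log2 difference of 0.26. Trim25 came closest. It had 2346, 2145, 3298 and 3098 normalized counts in high-fat untreated libraries and 2467, 2130, 1806 and 1948 in control untreated libraries, a log2 difference of 0.37 ± 0.13 (adjusted p = 0.0741, limma).

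The oligoadenylate synthetases sense double-stranded RNA and make a second messenger of the antiviral response. This family, counted here with the OAS-like genes Oasl1 and Oasl2, held the widest library differences of the whole list. Oas3 had 147.3, 134.4, 521.3 and 472.6 normalized counts in high-fat untreated libraries and 302.7, 120.7, 94.43 and 103.8 in control untreated libraries. High-fat untreated 3 and 4 were the 2 highest of all 16 libraries, control untreated 1 came next, and high-fat untreated 1 and 2 were close to the remaining control libraries. The log2 difference of 0.94 ± 0.48 did not pass (adjusted p = 0.204, limma).

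Oasl1 had 171.1, 215.1, 508.5 and 429.4 normalized counts in high-fat untreated libraries, against 270.1, 152.4, 127.2 and 143.4 in control untreated libraries. Again libraries 3 and 4 of the high-fat untreated group stood out, and the groups overlapped through control untreated 1. The log2 difference was 0.85 ± 0.31 (adjusted p = 0.0900, limma). Oas1a, Oas2 and Oasl2 had log2 differences of 0.60, 0.43 and 0.56, and the family median was 0.60.

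The antiviral effectors act on viral RNA, proteins or budding. All 11 lay higher in the high-fat untreated group, with a median log2 difference of 0.39 and 0 passing. Isg15, the ubiquitin-like modifier, had 362.6, 232.1, 546.7 and 582.1 normalized counts in high-fat untreated libraries and 379.2, 298.8, 263.3 and 302.7 in control untreated libraries. Its high-fat values thus reached both below and above all 4 control values. The log2 difference was 0.39 ± 0.25 (adjusted p = 0.299, limma). Mx2 had the largest difference of the 11, 0.52 ± 0.24, and Isg20, an exonuclease that degrades single-stranded RNA, the smallest, 0.09 ± 0.12.

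The GTPases and the antigen-processing genes had no such shift. Of the 5 GTPases 2 lay higher and 3 lower, with a median log2 difference of -0.07. All 3 antigen-processing genes lay lower, among them the immunoproteasome subunits Psmb8 and Psmb9 and the peptide transporter Tap1, with a median of -0.09. Igtp, an immunity-related GTPase of the vacuole defence against intracellular parasites, had 847.4, 714, 1042 and 1150 normalized counts in high-fat untreated libraries and 1047, 1423, 929 and 2549 in control untreated libraries. Control untreated 4 alone held the highest Igtp value of all 16 libraries, and the log2 difference of -0.57 ± 0.31 did not pass (adjusted p = 0.225, limma). Igtp shares 162 exon bases with Irgm2 on the same strand, so its value is uncertain to that extent.

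How many members passed rested on single libraries. Without control untreated 1, 15 of 41 members passed (36.6%), 14 higher and 1 lower. The share of all genes was then 29%, or 4119 genes, in either direction, and 13.9% higher. The 14 comprised all 5 OAS family members, Stat2, Usp18, Ifih1, Ddx58, Dhx58, Trim25, Ifit2, Ifitm3 and Mx2, and their differences were then between 0.28 for Ifih1 and 1.31 for Oas3 on the log2 scale. No GTPase or antigen-processing gene was among them. Without high-fat untreated 4 or control untreated 4, 0 of 41 members and 0 of all genes passed. Without high-fat untreated 2 or 3 or control untreated 3 it was also 0 of 41, with 117, 82 and 93 of all genes. With libraries weighted by their fit to the rest, 24 of 41 members (22 higher and 2 lower) and 30.9% of all genes (15.8% higher) passed.

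**Figure D3:**
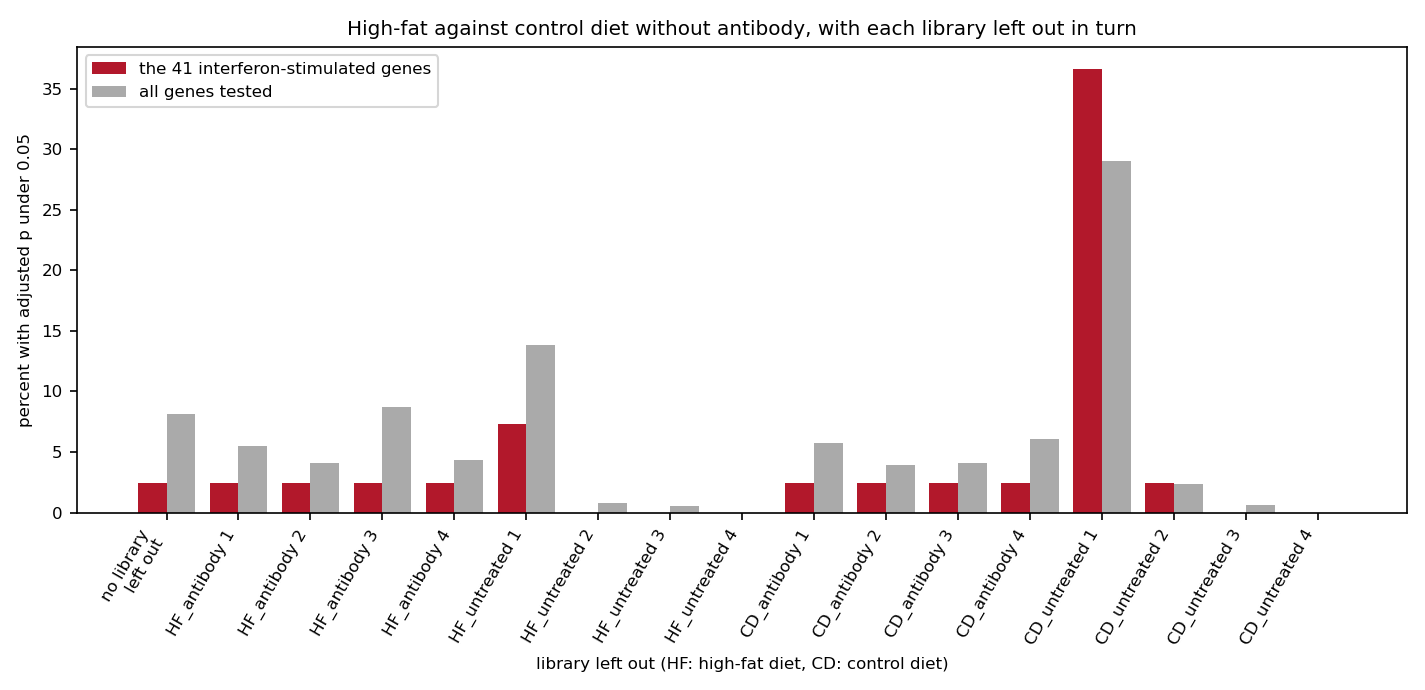
Bars give the percent of genes with adjusted p under 0.05 for high-fat against control diet without antibody, with no library left out and with each of the 16 libraries left out in turn, for the 41 genes (red) and for all genes tested (grey). The share of the 41 genes is 36.6% without control untreated 1 and at most 7.32% in every other case.

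The comparison of antibody with no antibody on the high-fat diet asks whether the antibody moved these genes. No member passed (0 of 41), and 11 of all genes did, 0.0775%. At an unadjusted p under 0.05 there were 5 members, Oasl1, Oas2, Usp18 and Isg15 lower and Gbp7 higher, against 13.5% of all genes. The sign was negative for 29 of 41 members, with a median log2 difference of -0.14, while the median of all genes was 0.00. This comparison shares the high-fat untreated libraries with the diet comparison, so the signs of both lean on the same 4 libraries. With weighted libraries, Oas2, Oas3 and Oasl1 lower and Gbp7 higher passed, 9.76% of members, against 9.37% of all genes.

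Oas3 had 254.2, 145.9, 105.9 and 84.18 normalized counts in high-fat antibody libraries, against 147.3, 134.4, 521.3 and 472.6 in high-fat untreated libraries. The 4 antibody values spread around untreated libraries 1 and 2 and lie below libraries 3 and 4. The log2 difference was -0.97 ± 0.48 (adjusted p = 0.409, limma).

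Oasl1 had 228.3, 204.7, 149.2 and 135.2 normalized counts in high-fat antibody libraries and 171.1, 215.1, 508.5 and 429.4 in high-fat untreated libraries. The groups overlapped, and the log2 difference was -0.77 ± 0.31 (adjusted p = 0.290, limma). Isg15 had 360.6, 340.8, 211.8 and 225.1 in high-fat antibody libraries and 362.6, 232.1, 546.7 and 582.1 in high-fat untreated libraries, a log2 difference of -0.55 ± 0.25 (adjusted p = 0.352, limma). By role, 5 of 5 OAS family members and 11 of 11 antiviral effectors lay lower with antibody, with medians of -0.54 and -0.26.

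Nucleic acid sensors lay lower for 5 of 6, other induced genes for 4 of 6 and signalling factors for 3 of 5, with medians of -0.15, -0.08 and -0.02. GTPases and antigen-processing genes had the opposite sign. Of the 5 GTPases 4 lay higher with antibody, and all 3 antigen-processing genes did, with medians of 0.04 and 0.16. Gbp7, a guanylate-binding protein, had 1070, 1840, 1333 and 1639 normalized counts in high-fat antibody libraries and 1205, 1235, 1079 and 1056 in high-fat untreated libraries. Antibody libraries 2, 3 and 4 lie above every untreated one and antibody library 1 does not, and the log2 difference of 0.34 ± 0.14 did not pass (adjusted p = 0.284, limma). Irf1, a factor of the type II response, had a log2 difference of 0.21 ± 0.13. The wider list of MHC class I and immunoproteasome genes had 15 of 15 members higher with antibody, 0 passing, and a median of 0.11.

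Markers of some cell types leaned lower in the same comparison. All 12 macrophage markers lay lower with antibody, 0 passing, with a median log2 difference of -0.28. Their sums were 45630 to 55530 in high-fat antibody libraries and 42550 to 77790 in high-fat untreated libraries. Neutrophil markers lay lower for 4 of 4 tested, with sums over 5 genes of 176 to 332.4 with antibody and 211.8 to 522.4 without. Progenitor markers lay lower for 6 of 7, with a median of -0.25, and endothelial markers higher for 6 of 7, with a median of 0.13. T and NK cell markers lay higher for 5 of 11, with a median of -0.002, and their sums were 472.1 to 800.6 with antibody and 403.7 to 751.7 without. Skeletal muscle markers lay lower for 10 of 10, with sums of 1177 to 10670 with antibody and 7689 to 593300 without, and Myh4, Ckm and Pvalb were at 0 in some libraries. The part of these cells in the differences of the interferon-stimulated genes was not tested.

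**Figure D4:**
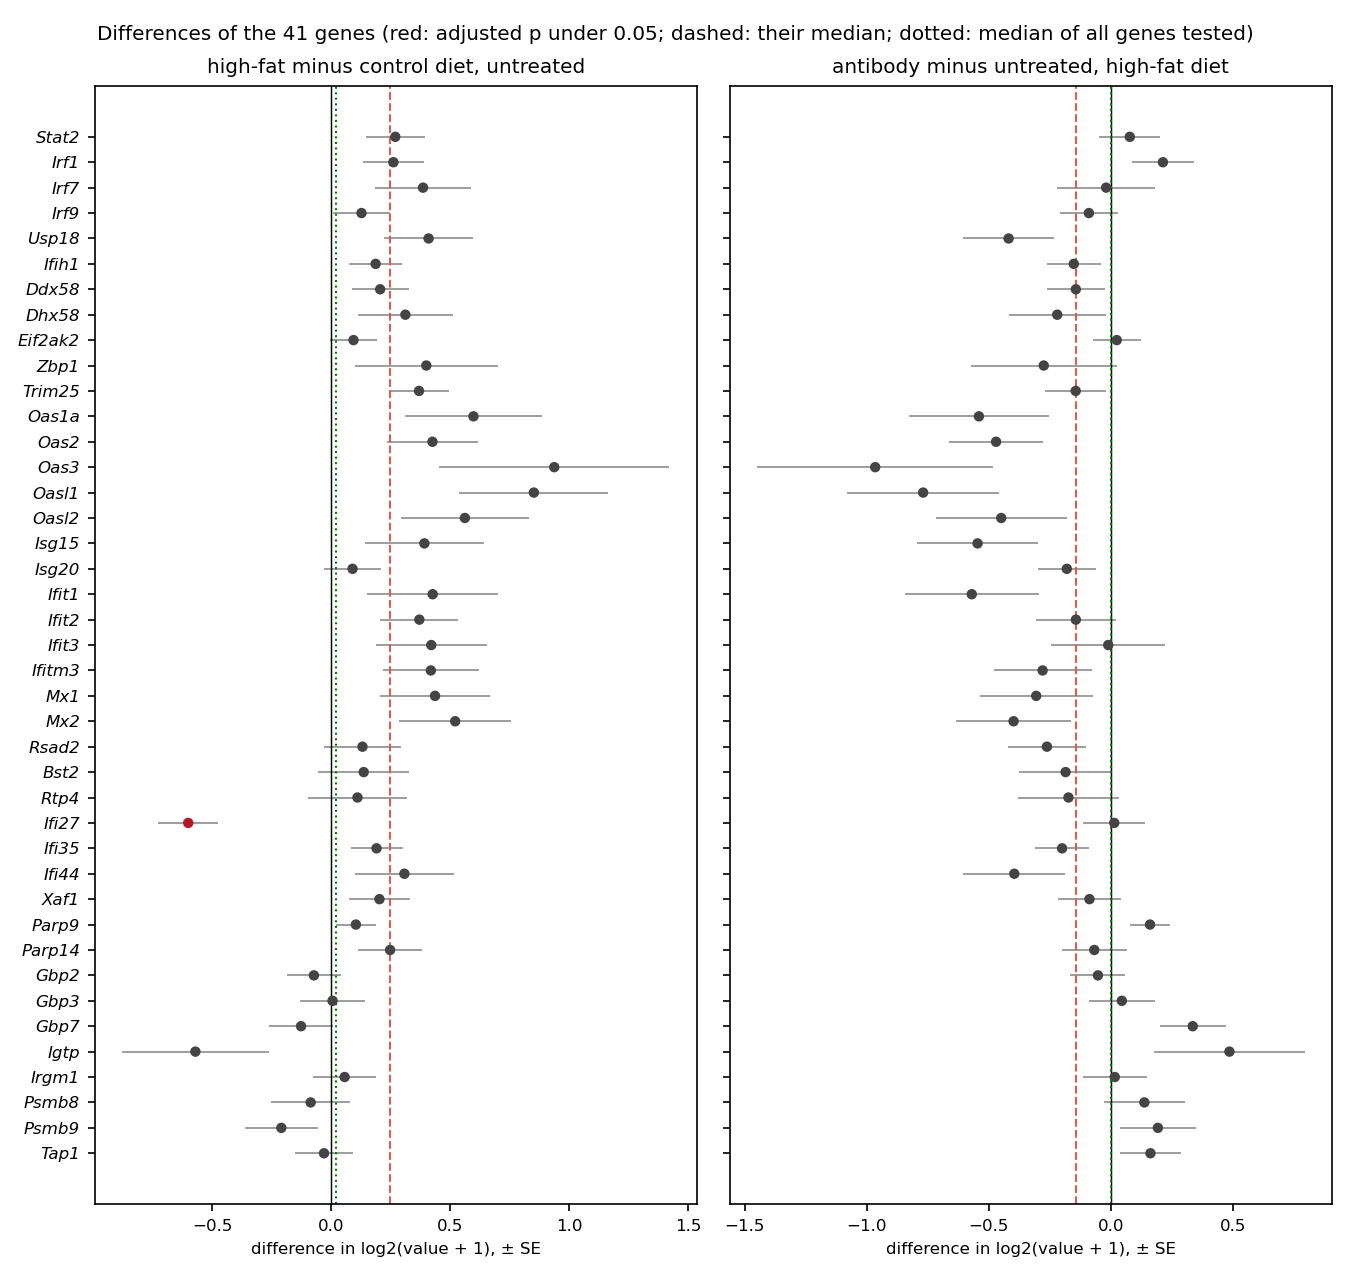
Log2 differences with their SE for the 41 genes, high-fat minus control diet without antibody on the left and antibody minus untreated on the high-fat diet on the right, with the median of the 41 genes (dashed) and of all genes tested (dotted). Ifi27 on the left is the single gene past the threshold, and Oas3 and Oasl1 lie farthest to the right on the left side and farthest to the left on the right side.

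On the control diet the antibody comparison had 0 of 41 members past the threshold and 14 of all genes, 0.0987%. At an unadjusted p under 0.05 there were 2 members, Irf1 higher and Rsad2 lower, against 11.6% of all genes. Signs were negative for 29 of 41 members, but the median log2 difference was -0.07, near the -0.01 of all genes, and it was 0.04 without control untreated 1. In 2 members, Isg15 and Ifi44, every antibody library lay below every untreated one, against 3.33% of all genes. Isg15 had 254.8, 250.7, 250.1 and 214 normalized counts in control antibody libraries and 379.2, 298.8, 263.3 and 302.7 in control untreated libraries. Its log2 difference was -0.35 ± 0.25 (adjusted p = 0.642, limma).

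Ifi44, an interferon-induced cytoplasmic protein, had 151.4, 152, 146.4 and 146.8 normalized counts in control antibody libraries and 234.8, 223.1, 177.2 and 167.2 in control untreated libraries. Its antibody values lie very close together and its untreated values do not. The log2 difference of -0.41 ± 0.21 did not pass (adjusted p = 0.475, limma). Rsad2 (viperin), which makes a chain-terminating nucleotide, had 480.9, 455.1, 433.6 and 389.7 with antibody and 690.8, 541.5, 679.3 and 477.8 without, overlapping through antibody library 1 and untreated library 4. The OAS family lay lower for 5 of 5, with a median log2 difference of -0.09, and macrophage sums were 39990 to 54920 in control antibody libraries and 32220 to 65710 in control untreated libraries. Skeletal muscle markers lay higher with antibody for 10 of 10, with a median log2 difference of 4.15, 0 passing, and sums of 36430 to 199400 in control antibody and 1351 to 37870 in control untreated libraries, and their part in the members' values was not tested.

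Among mice given the antibody, high-fat against control diet gave 0 of 41 members past the threshold and 1 of all genes, 0.00705%. Signs were positive for 34 of 41 members, with a median log2 difference of 0.17 against 0.02 for all genes. The members whose groups do not overlap were 7 higher, Stat2, Ddx58, Eif2ak2, Trim25, Rsad2, Ifi44 and Gbp3, against 6.38% of all genes, and 1 lower, Ifi27, against 9.08% of all genes. The OAS family, widest in the untreated comparison, had a median of 0.19 here.

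Ddx58 had 1378, 1367, 1194 and 1172 normalized counts in high-fat antibody libraries and 996.1, 1081, 1122 and 1071 in control antibody libraries. All 4 high-fat values lie above all 4 control values, and the log2 difference was 0.26 ± 0.12 (adjusted p = 0.271, limma). Rsad2 had 515.9, 528.7, 558.7 and 554.3 in high-fat antibody libraries and 480.9, 455.1, 433.6 and 389.7 in control antibody libraries, a log2 difference of 0.30 ± 0.16 (adjusted p = 0.335, limma). Macrophage sums overlapped between these groups, 45630 to 55530 in high-fat antibody and 39990 to 54920 in control antibody libraries. Skeletal muscle markers lay lower on the high-fat diet for 10 of 10 with no overlap, with a median log2 difference of -7.19 and sums of 1177 to 10670 in high-fat antibody and 36430 to 199400 in control antibody libraries. Endothelial markers lay higher for 7 of 7, with a median of 0.27 and sums of 15650 to 24130 in high-fat antibody and 13870 to 17810 in control antibody libraries. No marker of either list passed the adjusted threshold, and their part in the members' values was not tested.

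Averaged over antibody and no antibody, high-fat against control diet gave 4 members past the threshold, Ifi27 lower and Trim25, Stat2 and Parp9 higher, against 19.4% of all genes (8.28% higher and 11.1% lower). In all, 37 of 41 members lay higher and the median log2 difference was 0.22, against 0.02 over all genes. Macrophage markers lay higher for 12 of 12, with a median of 0.31 and 2 passing. Progenitor and endothelial markers lay higher for 7 of 7 each, with medians of 0.22 and 0.18. T and NK cell markers lay higher for 4 of 11, and skeletal muscle markers lower for 10 of 10, with a median of -2.29. The part of these cells in the members' values was not tested.

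Ifi27 had 11070, 10140, 10180 and 10450 normalized counts in high-fat antibody libraries and 15320, 13110, 13040 and 12620 in control antibody libraries, besides the untreated values above. All 8 control-diet libraries lie above 7 of the 8 high-fat libraries, the exception being high-fat untreated 1. Its order of libraries was unlike that of most members. Control untreated 3 was the highest of the 16, and high-fat untreated 4, 3 and 2 were the lowest. Whether the lower Ifi27 reflects interferon was not tested. The averaged log2 difference of Ifi27 was -0.48 ± 0.09, a fold of 0.72 (adjusted p = 0.00624, limma). The call held whichever of the 16 libraries was removed.

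Trim25 had 2496, 2461, 2208 and 2540 normalized counts in high-fat antibody libraries and 1897, 1889, 2141 and 1964 in control antibody libraries. Over both antibody states, all 8 high-fat libraries lie above 7 of the 8 control-diet libraries, the exception being control untreated 1 at 2467. The averaged log2 difference of 0.33 ± 0.09, a fold of 1.26, passed (adjusted p = 0.0209, limma), again whichever of the 16 libraries was removed.

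Stat2 had 1743, 1829, 1721 and 1530 normalized counts in high-fat antibody, 1480, 1513, 1602 and 1888 in high-fat untreated, 1336, 1441, 1441 and 1334 in control antibody and 1801, 1197, 1090 and 1365 in control untreated libraries. As for Trim25, every high-fat library lies above every control-diet library except control untreated 1. The averaged log2 difference was 0.28 ± 0.09 (adjusted p = 0.0372, limma). It passed without high-fat antibody 4, high-fat untreated 1 or 2 or control untreated 1, and was lost without any of the other 12 libraries, with adjusted p up to 0.0778.

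Parp9, an ADP-ribosyltransferase family member that partners the ubiquitin ligase Dtx3l, averaged 2339 ± 176 normalized counts in high-fat antibody, 2093 ± 149 in high-fat untreated, 1961 ± 182 in control antibody and 1949 ± 160 in control untreated libraries (SD, n = 4 each). The averaged log2 difference was 0.18 ± 0.06 (adjusted p = 0.0452, limma). It passed without high-fat antibody 1, high-fat untreated 2, control antibody 2 or control untreated 1, and was lost without any of the other 12, with adjusted p up to 0.0938. Parp9 shares 458 exon bases with Dtx3l on the opposite strand, and Dtx3l had an averaged log2 difference of 0.24 ± 0.06 (adjusted p = 0.0174, limma). With the muscle score as covariate the adjusted p was 0.0640 for Stat2 and 0.0782 for Parp9, and neither passed. Without control untreated 1, 15 members passed in the averaged diet comparison, 36.6%, 14 of them higher, against 33.3% of all genes (16.5% higher). Without high-fat untreated 2, the library with the largest muscle sum, 12 members passed, 29.3%, 11 of them higher. The share of all genes was then 16.2% (6.45% higher). Without both this library and control untreated 3, 6 members passed, 14.6%, 5 of them higher, against 11% of all genes (4.3% higher).

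Averaged over diets, antibody against no antibody gave 0 of 41 members past the threshold, against 2.52% of all genes. Irf1 lay higher and Oas2, Isg15, Rsad2 and Ifi44 lower at an unadjusted p under 0.05, where 16.8% of all genes stood, and 31 of 41 members lay lower in all. Without high-fat untreated 2, Isg15, Rsad2 and Ifi44 passed, with log2 differences of -0.58, -0.44 and -0.52. They were 7.32% of members, against 2.31% of all genes. Without control untreated 4, Irf1 passed at 0.33, 2.44% of members, against 2.36% of all genes. The interaction, which tests whether the antibody difference depends on the diet, gave 0 of 41 members past the threshold and 0 at an unadjusted p under 0.05 in limma, the one tool run, against 0 and 6.18% of all genes. The OAS family differences under antibody on the 2 diets were thus not shown to differ.

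The roles ordered the libraries in different ways. The mean deviation of the OAS family from its average over all libraries was 1.09 in high-fat untreated 3, 1.01 in high-fat untreated 4, 0.63 in control untreated 1 and 0.44 in high-fat antibody 1, on the log2 scale. All other libraries were at 0.09 or less. The GTPases and antigen-processing genes together had the most members among the 4 highest libraries in high-fat antibody 2, with 7 of 8, and in control untreated 4, with 6 of 8, and just 1 of 8 in each of high-fat untreated 3 and 4.

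**Figure D5:**
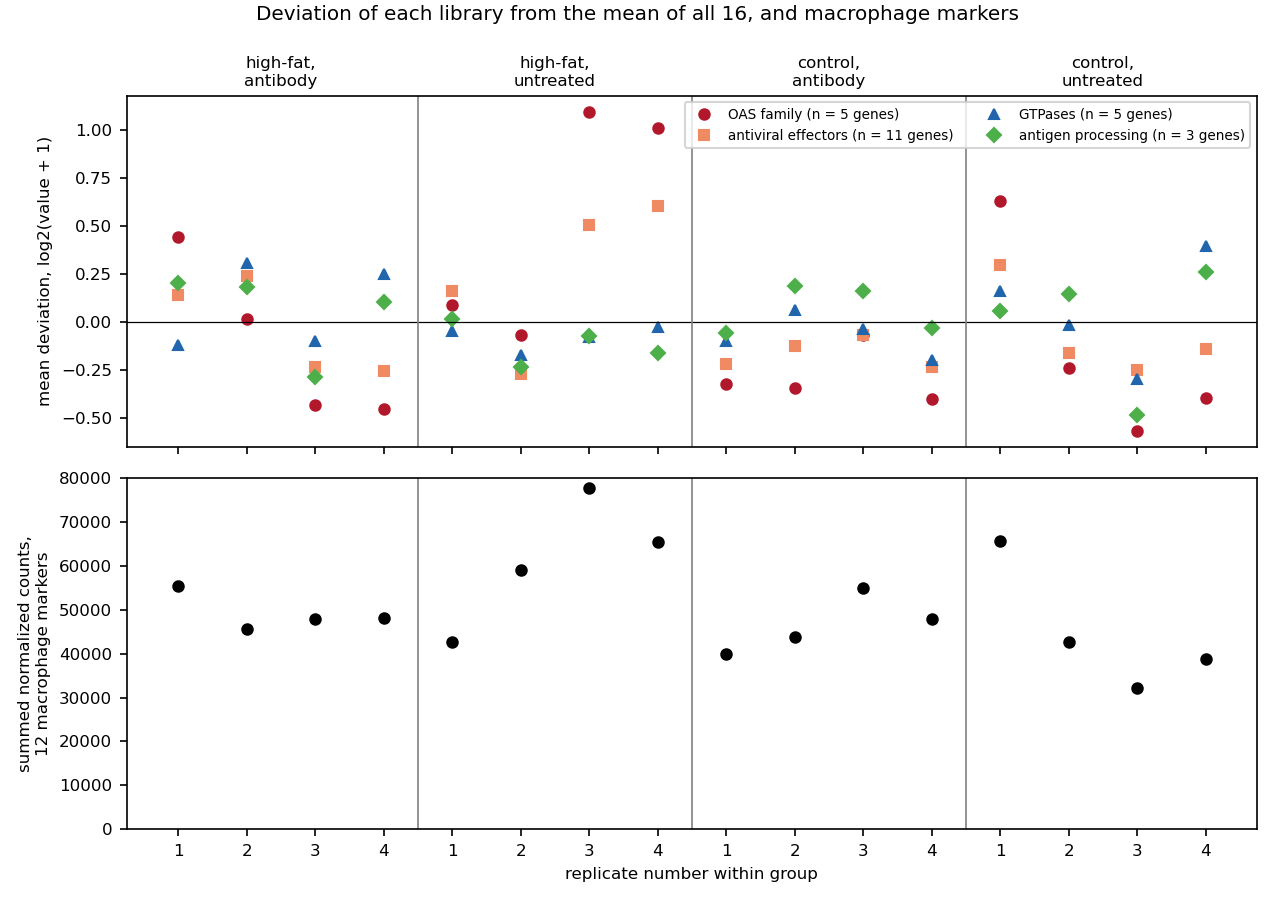
Top, mean deviation on the log2(value + 1) scale of 4 roles from their mean over all 16 libraries, per library. Bottom, summed normalized counts of 12 macrophage markers in the same libraries. The 3 libraries with the highest OAS family deviations, high-fat untreated 3 and 4 and control untreated 1, are those with the highest macrophage sums, 77790, 65500 and 65710. Their progenitor and neutrophil sums, not drawn, were also among the 4 highest.

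The spread within groups differed widely among members. The residual SD on the log2 scale, from the fit over all 16 libraries, had a median of 0.25 over the 41 genes and 0.20 over all genes tested. Oas3 had 0.76, above 97.34% of genes tested, followed by Oasl1 at 0.49 and Igtp at 0.48. Parp9 had 0.12, with 21.8% of genes tested below it.

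The genes upstream of the members were given by lists of the pathway. Of 11 interferon genes, Ifnb1, Ifng and others, 0 were in the table. Of 20 receptor and signalling genes 19 were tested. With high-fat against control diet without antibody 1 of 19 rose, Stat3, by 0.33 ± 0.09 on the log2 scale (adjusted p = 0.0398, limma). Of all 14189 genes 423 rose there. Averaged over antibody, 2 of 19 rose, Stat3 and Jak2, against 8.28% of all genes. Ifnar1 was close to even across groups, with group means of 1604 to 1754.

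Ifngr1, the ligand-binding chain of the type II receptor, had 4672, 4726, 5517 and 4638 normalized counts in high-fat antibody, 5918, 7600, 7887 and 8712 in high-fat untreated, 3900, 4694, 4521 and 4862 in control antibody and 7078, 6884, 5720 and 5119 in control untreated libraries. On each diet every antibody library lies below every untreated one. The same held for 492 of all 14189 genes on the high-fat diet and 473 on the control diet. On neither diet alone did the Ifngr1 difference pass, where 0 of 19 receptor and signalling genes passed. Averaged over diets Ifngr1 fell with antibody by 0.53 on the log2 scale (SE 0.09, adjusted p = 0.00756, limma), against 2.52% of all genes called.

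Of 17 nucleic acid sensing genes 14 were tested. In the untreated diet comparison 1 fell, Mavs, the mitochondrial adaptor of RIG-I and MDA5, with a log2 difference of -0.46 ± 0.12 (adjusted p = 0.0409, limma). Of all genes, 5.17% fell there. In the averaged diet comparison 3 of 14 rose, Tlr9 and Ikbke among them, and 1 fell, Mavs, where 19.4% of all genes passed.

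A list of 66 other interferon-stimulated genes, of which 64 were tested, was read in the same comparisons. For the interaction 7 of 64 stood at an unadjusted p under 0.05, all positive, against 0 of the 41 and 6.18% of all genes. On the high-fat diet without antibody 50 of 64 lay higher, with a median log2 difference of 0.20. At an unadjusted p under 0.05 stood 39.06% of the 64, against 19.51% of the 41 and 30.3% of all genes. Past the adjusted threshold 2 of 64 rose, where 423 of all 14189 genes rose. These were Samd9l, by 0.59 ± 0.12 (adjusted p = 0.0242, limma), and Daxx, by 0.32 ± 0.08 (adjusted p = 0.0376, limma). Samd9l, a growth-restraining factor that limits poxviruses, had 1510, 1532, 1940 and 1999 normalized counts in high-fat untreated libraries and 1447, 1206, 981.7 and 1015 in control untreated libraries, with no overlap. Averaged over antibody, 8 of 64 rose and 0 fell, against 8.28% higher and 11.1% lower among all genes, with Daxx, Samd9l, Nlrc5, the activator of MHC class I genes, and Helz2 having the smallest p. With antibody on the high-fat diet 0 of 64 passed, with a median of -0.07. Ifi205, a DNA-binding protein of the interferon-inducible p200 family, fell with antibody averaged over diets, by 0.85 on the log2 scale (SE 0.21, adjusted p = 0.0438, limma). Of all genes, 2.52% passed in that comparison. Close relatives of Ifi205, and close copies of Ifit3 and Oas1a, could share reads with them, which makes these values uncertain.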

How the data were processed

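The members and lists were chosen with earlier results of these data known. The deposited table gives normalized counts, a linear signal per gene and library, for 16091 genes. Its normalization, and any counting by strand, is not given in the sources used here. Libraries, per the labels, were made with the TruSeq Stranded mRNA kit. Tools named, per the submitters' processing notes, are limma 3.42.2, STAR 2.7.0e, fastp 0.20.1, featureCounts and Subread 1.6.2, with the builds mm10 and GRCm38. Values were not whole, and whole reads could not be recovered, so read depth is unknown and no count model was run.

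Genes above 24.49 (1 per 1e6 of the median library total) in at least 4 libraries were tested as log2(value + 1) with limma 3.58.1 in R 4.3.3, with an expression trend, 1 mean per group over all 16 libraries, two-sided, and Benjamini-Hochberg adjustment over the 14189 genes within each of 7 comparisons (residual degrees of freedom 12). The fit was tested on simulated data in which each gene and library was drawn independently. That simulation held no differences shared across a library, so it does not show how the fit behaves with them. A fold is on the log2(value + 1) scale. A member past adjusted p 0.05 was named in each comparison, or else up to 4 by smallest p. Other members were named as examples of their role, and genes of other lists that did not pass (Ifnar1, and Dtx3l in part) were named after their values were seen. Some genes of these lists are not reported here. Exon lengths and overlaps come from GENCODE vM21, where 41 members were found, 10 of them sharing exon bases with another gene of the table. The plan described control untreated 3 and high-fat untreated 2 as carrying muscle RNA, and in the values high-fat untreated 2 and control antibody 1, 2 and 4 stood out. Alternatives were other scalings, filters, pseudocounts, fits and left-out libraries.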

Additional observations from a re-analysis of the deposited data

Results flagged for a closer look

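The 41 genes in the 4 groups gave 164 sets of 4 values. In 11 of these sets 1 library lay far from its 3 group mates. Chance gives about 1 in 20 such sets, which is near the share found. The sets are not independent, since the genes vary together and the same libraries recur. Control untreated 1 lay high for Usp18 (454.3 normalized counts, the next library 324.9), Oas2 (1223, next 720.2) and Ifit3 (1078, next 796.7). In the same group, replicate 2 lay low for Eif2ak2 (848.5, next 924.9) and replicate 3 for Tap1 (1137, next 1704). In the control antibody group, replicate 3 lay high for Oasl2 (1259, next 1030), Ifit2 (555.7, next 456.9) and Xaf1 (729.3, next 601), replicate 4 low for Isg15 (214, next 250.1) and replicate 1 low for Isg20 (274.2, next 337). High-fat untreated 2, the library with the most muscle RNA, lay low for Rsad2 (434.1, next 704.3). The part of muscle or macrophage RNA in these values was not tested.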

How the results depend on the processing

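The median log2 difference of the 41 genes moved by less than 0.21 under every alternative run, and 0 results past the threshold reversed. That bound is the SD within groups of the library mean over members. It is larger than most of the medians, so it does not exclude a change of sign. For antibody on the control diet the median of -0.07 became 0.04 in one case. Of 7495 other member results recomputed, 138 passed the threshold and 273 changed sign without passing. The counts of genes past the threshold moved with the fit, and the cause was not tested. For high-fat against control diet without antibody, the counts as reported were 1 of 41 members and 1157 of all genes. They were 0 and 0 with only the groups compared, 0 and 87 with a muscle score as covariate, 24 and 4380 with array weights, 0 and 0 without control untreated 3 and high-fat untreated 2, and 16 and 4544 without control untreated 1 and high-fat untreated 1, and without an expression trend 726 of all genes passed. The last pair was left out after seeing the data. For antibody on the high-fat diet 4 of all genes passed with only the groups compared, 0 with the muscle score and 4 members and 1330 of all genes with array weights, and 1 member and 629 of all genes without control untreated 1 and high-fat untreated 1. For antibody on the control diet, the counts of all genes were 0 with only the groups compared, 4 with the muscle score, 757 with array weights, 3 without the trend and 89 without that pair. For diet under antibody, 3 members and 641 of all genes passed with only the groups compared, 0 of all genes with the muscle score, 2 and 1099 with array weights, 2 of all genes with no filter, 298 without control untreated 3 and high-fat untreated 2, and 1 and 392 without control untreated 1 and high-fat untreated 1. That last pair gave 327 of all genes for the interaction. For diet averaged over antibody, 2 members and 2789 of all genes passed with the muscle score, and 26 and 5119 with array weights. Without control untreated 3 and high-fat untreated 2, 6 members and 1562 of all genes passed. Without control untreated 1 and high-fat untreated 1 the counts were 17 and 5004. For antibody averaged over diets, 5 members and 1958 of all genes passed with array weights. Without control untreated 3 and high-fat untreated 2, 3 members and 428 of all genes passed. Without the other pair, 593 of all genes did.

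With each library left out in turn, members past the threshold numbered 0 to 15 for diet without antibody, 2 to 15 for diet averaged, 0 to 3 for antibody averaged and 0 to 0 for the others. Over all genes the ranges were 0 to 4119 (diet without antibody), 1 to 271 (antibody on high-fat diet), 0 to 86 (antibody on control diet), 0 to 239 (diet under antibody), 0 to 1 (interaction), 1593 to 4721 (diet averaged) and 144 to 533 (antibody averaged). The members' medians ranged from 0.17 to 0.32, -0.26 to -0.08, -0.15 to 0.04, 0.08 to 0.23, -0.18 to 0.01, 0.16 to 0.29 and -0.16 to -0.06 in that order.

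The labels number the libraries 1 to 4 in each group. Of 24 pairs with the same number, 10 had a correlation of deviations over 0.1, with a range of -0.54 to 0.49. The numbers were not taken to pair the libraries in the main fit. Every pair of libraries numbered 2 had a positive correlation, from 0.126 to 0.487, and what these libraries share was not tested. With a replicate block, 0 members and 0 of all genes passed for diet without antibody, 2 members and 1498 of all genes for diet averaged, where Stat2 (adjusted p = 0.0718) and Parp9 (0.0795) were lost, and 2, 2, 0, 1 and 123 of all genes for antibody on the high-fat diet, antibody on the control diet, diet under antibody, the interaction and antibody averaged. Read depth is unknown, so counting error cannot be given.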
